A study of Mus musculus with 6 samples.

Results

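The genes described here are 9 mouse noncoding RNA genes, taken by symbol: the nuclear RNAs Neat1 and Malat1, the small nucleolar RNA (snoRNA) host genes Gas5, Snhg1, Snhg5, Snhg12 and Dancr, and the microRNA host genes Mir155hg and Mir22hg. Of these 9, 8 had a row among the 45706 genes of the count table, and 7 passed the filter on low counts that left 15141 genes for testing. The identifier of Snhg1 had no row, so its transcript was not analysed here and only the snoRNA genes inside it were read. Dancr had 7 counts over all 6 libraries and was not tested. The name "abundant" suited part of the list. In both groups Neat1 had the highest mean count, scaled to library size, of the 6384 rows with a long noncoding biotype. Per kilobase of exon its rank among them was 35 in control and 17 in conditioned medium. That class also holds a few protein-coding genes such as Ifi30. Mir155hg, by contrast, had 50 counts in all.

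RNA sequencing was available for marrow cells of the mouse in 2 libraries with control medium (replicates 1 and 2) and 4 libraries with medium conditioned by mouse clear cell renal cell carcinoma (ccRCC) cells. Each of the ccRCC lines VpR83, VpR99, VpR126 and VpR2020 supplied the medium of 1 library, so the lines stood in as replicates, and differences between lines have no replicate check. The count columns of VpR83, VpR99 and VpR126 also carry the tags Ctrl, T1 and LT2, which the sample titles lack. The groups follow the titles, and whether the lines differ in kind was not tested. All libraries came from total RNA with a stranded kit. The sources used here do not give the strain, age or genotype of the mice, the time in culture, or whether libraries came from separate animals, so p-values measure only the spread between these libraries, which may be technical. The labels of the comparator name control medium while the design text speaks of marrow just isolated, so medium and time in culture cannot be told apart.

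Total counts lay between 18629708 and 28055913 in 5 libraries and reached 129120559 in VpR99. Levels are in CPM (counts scaled to library size) after TMM scaling, a correction for library composition, and group values are mean ± SD over 2 control libraries (n = 2) and 4 conditioned ones (n = 4). Log2 fold changes are conditioned minus control, ± SE, from the quasi-likelihood fit of edgeR, with p-values adjusted by Benjamini-Hochberg over all tested genes. Genes under an adjusted p of 0.05 were called, 22.5% of all tested genes as higher and 19.7% as lower. The cell content differed widely between the groups. The summed level of 10 macrophage markers was 434 to 450 CPM in control medium and 15234 to 27452 CPM in conditioned medium, with all 10 called higher. The summed level of 8 erythroid markers was 1902 to 4455 CPM in control medium and 0.511 to 5.15 CPM in conditioned medium, with Slc4a1 at 0 counts in every conditioned library. That of 10 neutrophil markers was 79935 to 87669 and 3156 to 16956 CPM, with 8 called lower. Elane and Mmp8 were not called, and Mmp8 had 980 ± 53.9 CPM in control and 1129 ± 870 CPM in conditioned medium. Markers of B cells, T and NK cells and stromal and endothelial cells were called lower for 6, 8 and 6 of 8 genes each (2 B cell markers when either control was left out). The endothelial receptor gene Kdr was the 1 marker of these lists called higher, from 0.756 ± 0.127 to 9.53 ± 7.78 CPM (edgeR adjusted p = 0.0246), a call lost by voom and without either control. The 8 epithelial markers, of which 4 were tested and 2 called lower, summed to 18.8 to 21.4 CPM in control and 3.54 to 18 CPM in conditioned medium, with Krt19 at 0 counts throughout. In such bulk libraries fewer cells of a type and less RNA per cell cannot be told apart, and the part of these cell types in the results below was not tested.

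Long noncoding RNAs act as RNA and are not translated into a main protein product. Neat1 is the architectural RNA of paraspeckles, nuclear bodies that hold RNA-binding proteins, and Malat1 is kept in nuclear speckles, where splicing factors gather. A snoRNA host gene carries snoRNAs in its introns, which guide the chemical modification of ribosomal RNA after they are cut out, while the spliced host transcript is usually short-lived because nonsense-mediated decay, the pathway that removes transcripts with an early stop codon, degrades it. Gas5 was named for its build-up in growth-arrested cells. Mir155hg and Mir22hg are the primary transcripts of miR-155, which is induced when macrophages and lymphocytes are activated, and of miR-22.

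The start sites of the snoRNA hosts are shown because such genes often begin with a run of pyrimidines, the 5′ terminal oligopyrimidine tract of ribosomal protein genes. The windows hold 30 bases before and 30 bases from the start in RefSeq (GRCm38.p6), read 5′ to 3′ on the strand of the gene, and capitals mark a C followed by at least 4 more bases that are C or T, beginning within 5 bases of the start.
Gas5, second start, chr1:161035136-161035195, plus strand: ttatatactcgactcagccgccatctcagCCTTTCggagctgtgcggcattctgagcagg
Snhg12, chr4:132308648-132308707, plus strand: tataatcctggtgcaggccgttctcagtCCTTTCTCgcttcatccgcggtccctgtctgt
Snhg5, chr9:88522868-88522927, minus strand: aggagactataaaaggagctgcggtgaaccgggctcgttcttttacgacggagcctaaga
Snhg1, chr19:8723457-8723516, plus strand: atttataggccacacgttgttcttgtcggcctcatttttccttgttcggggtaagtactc
The tract was found at the second start of Gas5 (6 bases) and at Snhg12 (8 bases), not at the first start of Gas5 (chr1:161034571-161034630) or at the windows of Snhg5 and Snhg1, and at 18.3% of all 32851 start entries and 42.1% of 76 ribosomal protein entries. Among the other members with an entry, Mir22hg held a tract of 5 bases, and Malat1, Mir155hg and Dancr held none. The motifs CACGTG and TGACTCA, searched on both strands of the 300 bases around each start with no overlap between the motifs, were in none of the entries of the members, against 7.15% and 5.2% of all entries.

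The mature products of the microRNA hosts, from RefSeq (GRCm38.p6), are shown because they are what these transcripts are processed into. Capitals mark the seed (bases 2 to 8), the part that pairs with target RNAs.
mmu-miR-155-5p, chr16:84714143-84714165, plus strand: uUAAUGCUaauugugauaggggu
mmu-miR-22-3p, chr11:75463772-75463793, plus strand: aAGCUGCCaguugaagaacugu
The seeds of these 2 microRNAs differ, and neither was shared with another of the mature mouse microRNAs in the table. The rows Mir155 and Mir22 had 0 counts in all 6 libraries, so the host transcripts were read in place of the microRNAs, whose own levels were not measured.

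The 3 snoRNA host genes with enough counts fell under conditioned medium. Gas5, Snhg5 and Snhg12 were 3.37-fold, 4.30-fold and 3.42-fold lower, and no conditioned library reached the lower control. The exons annotated over all their transcripts cover all or most of their spans. Spliced and unspliced host RNA were therefore not told apart. Together with Dancr, these host genes summed to 243 ± 62.8 CPM in control and 68.9 ± 6.6 CPM in conditioned medium. Of the 7 tested members, these 3 were called lower and none higher, beside 19.7% of all tested genes called lower, 22.5% called higher and 42.2% called in all. Conditioned libraries all below both controls were seen for 33.3% of tested genes, all above for 32%, and either for 65.3%. The called genes were 53.3% higher ones under TMM, 38.6% with library totals only and 40% under upper-quartile scaling, and the 3 hosts were called lower under each. Control replicate 1 had the higher Gas5, Snhg5 and erythroid marker sum, but the lower Snhg12. The mitochondrial share of counts was 1.55% and 0.825% in control replicates 1 and 2, and 1.37% to 2.31% in the conditioned libraries. The ribosomal protein and histone shares given further on were lower in the conditioned libraries. Whether any of these bear on the host genes was not tested.

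Gas5 (chr1:161034422-161038539, plus strand, 25 annotated transcripts) had 211.9 and 140.7 CPM in control replicates 1 and 2. Under conditioned medium it had 43.7 CPM with VpR83, 55.4 with VpR99, 54.2 with VpR126 and 56 with VpR2020. The 4 conditioned libraries were thus close to each other, while the controls differed by 1.51-fold. The log2 fold change was -1.75 ± 0.20 (edgeR adjusted p = 0.00151). In mean CPM Gas5 had rank 5 among the long noncoding rows in control medium and rank 14 in conditioned medium.

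Snhg5 (chr9:88521050-88522929, minus strand), the host of the U50 snoRNAs Snord50a and Snord50b, had 57.8 and 38.1 CPM in the controls. It had 11.7 CPM under VpR83, 15.3 under VpR99, 7.77 under VpR126 and 9.68 under VpR2020 medium. Its log2 fold change of -2.11 ± 0.30 (edgeR adjusted p = 0.00307) was the largest fall of the 3 genes. The lines ranged over 1.97-fold, with the lowest values under VpR126 and VpR2020.

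Snhg12 (chr4:132308623-132311024, plus strand) was the most even of the members over the lines. It had 17.7 and 19.9 CPM in the controls, and 5.16 (VpR83), 5.68 (VpR99), 5.70 (VpR126) and 5.42 CPM (VpR2020) in conditioned medium. The log2 fold change was -1.77 ± 0.17 (edgeR adjusted p = 0.00111). Over the 4 lines the SD of its log2 CPM was 0.067, which lay at percentile 2.51 of all tested genes, where the median was 0.353. Unlike Gas5 and Snhg5, it was not higher in control replicate 1 than in replicate 2.

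**Figure D1:**
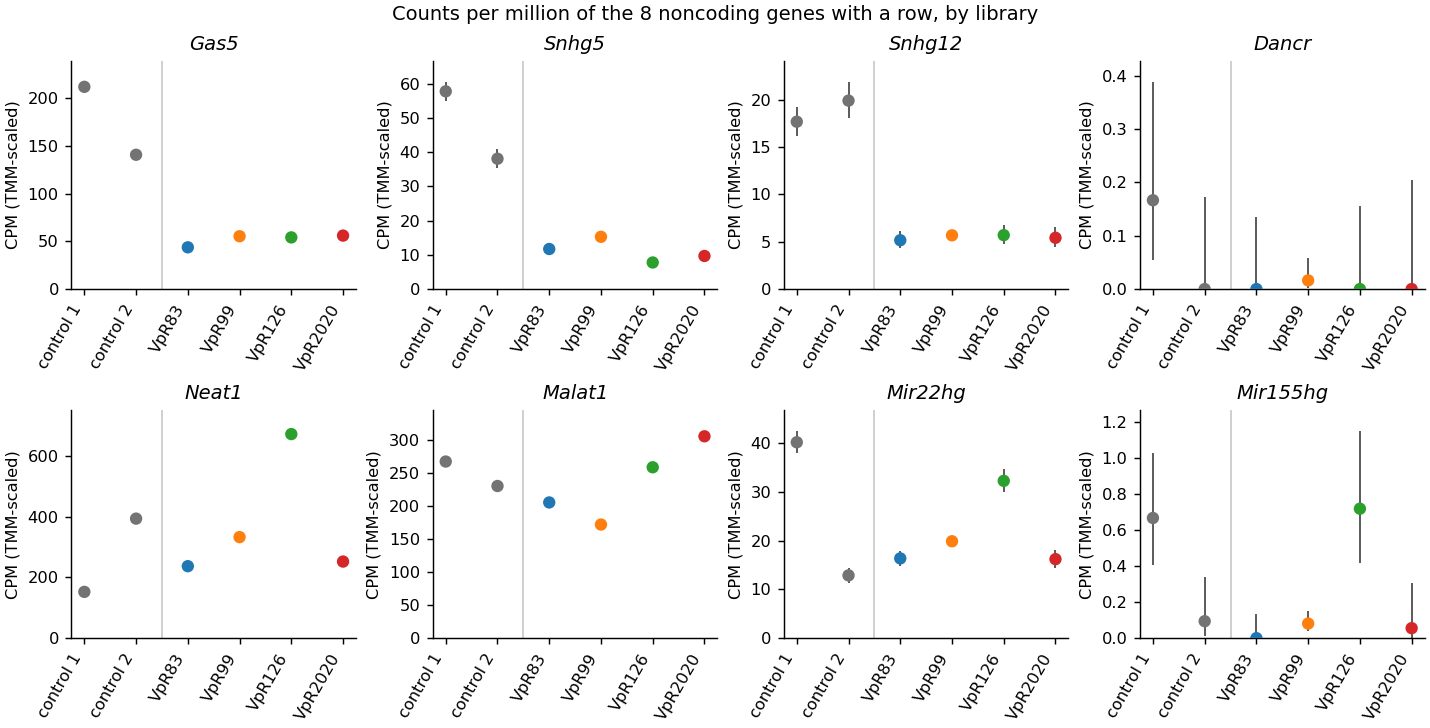
TMM-scaled CPM (y axis, linear from 0) of the 8 noncoding genes with a row, in each of the 6 libraries (x axis); grey points are the controls, coloured points the 4 conditioned media, and bars the exact 95% Poisson intervals, which cover counting error only. Gas5, Snhg5 and Snhg12 are lower in all 4 conditioned libraries than in both controls, while the controls enclose or overlap the conditioned values of the other genes.

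The proportion of Snhg5 to Gas5 was not the same in all lines. Snhg5 made up 21.4% and 21.3% of the summed Snhg5 and Gas5 counts in control replicates 1 and 2 (Wilson 95% intervals 20.6% to 22.3% and 20% to 22.6%). It made up 21.1% (19.1% to 23.2%) under VpR83 and 21.6% (20.8% to 22.5%) under VpR99 medium. The share was 12.6% (11% to 14.3%) under VpR126 and 14.7% (12.8% to 16.9%) under VpR2020 medium. The last 2 intervals do not reach those of the other 4 libraries, but they cover counting error only, and with 1 library per line no difference between lines was tested. For the pair of Snhg12 and Gas5, the share of Snhg12 was 7.71% and 12.4% in the controls and 8.82% to 10.6% in the conditioned libraries, which therefore lay between the controls.

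**Figure D2:**
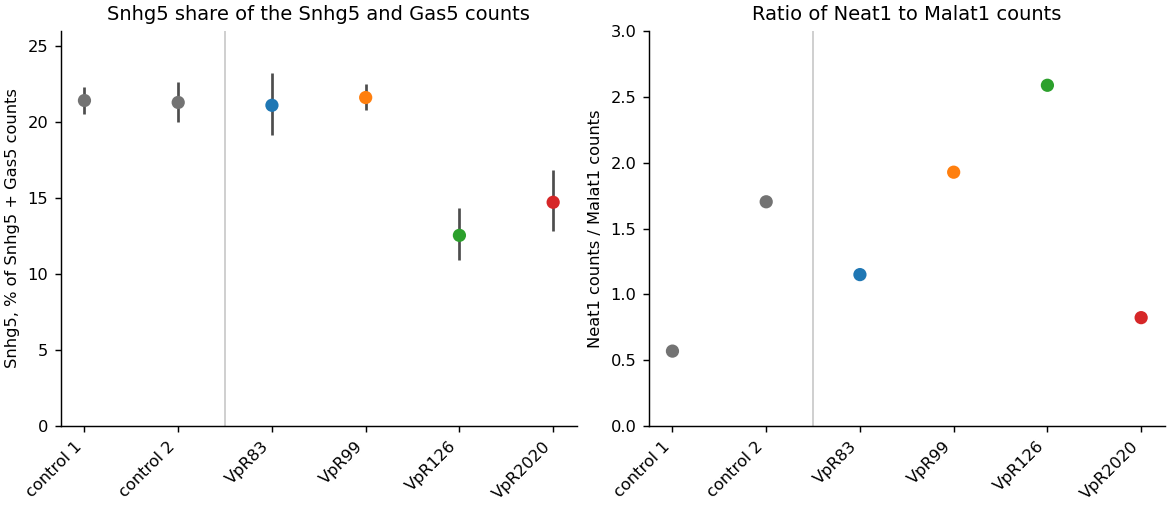
Left, Snhg5 as a percentage of the summed Snhg5 and Gas5 counts in each library, with Wilson 95% intervals; right, the ratio of Neat1 to Malat1 counts in each library, both axes linear from 0. The Snhg5 share is 21.1% to 21.6% in 4 libraries and lower under VpR126 and VpR2020 media, and for the Neat1 ratio VpR83 and VpR2020 lie between the controls while VpR99 and VpR126 lie above both.

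Snhg1 itself had no row, but the 8 snoRNA genes annotated inside it (chr19:8723475-8726443, plus strand, GRCm38) did, and their summed counts were lower in conditioned medium. Their summed level was 34.7 and 16.7 CPM in control replicates 1 and 2. It was 6.70 CPM under VpR83, 10.2 under VpR99, 3.84 under VpR126 and 3.82 under VpR2020 medium. Every conditioned library was thus below both controls, as for 33.3% of tested genes, and the lowest 2 lines were those with the lowest Snhg5. The group means were 25.7 ± 12.7 and 6.13 ± 3.01 CPM, a ratio of 4.19, which was 2.73 without control replicate 1.

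All 8 rows had negative log2 fold changes, from -2.53 to -1.27, and 4 of them were called lower, beside 19.7% of all tested genes. The rows lie inside 1 gene, so their shared sign need not be 8 separate results. Snord22, the U22 snoRNA gene, had 11.7 and 5.22 CPM in the controls and 0.719 to 2.29 CPM in the conditioned libraries (-2.53 ± 0.54, edgeR adjusted p = 0.0117). Gm22744, Gm22680 and Gm23246, the other snoRNA rows that were called, had log2 fold changes of -1.82, -2.22 and -1.97 (edgeR adjusted p = 0.0203, 0.0243 and 0.0253). Gm24452, Gm24453, Gm25894 and Gm25855 had log2 fold changes of -1.88, -1.58, -1.70 and -1.27 and were not called (edgeR adjusted p = 0.0507, 0.0651, 0.0808 and 0.118). Without control replicate 1 none of the 8 was called, without control replicate 2 Snord22 alone, without VpR2020 2 and without VpR99 7. Whether these reads came from finished snoRNAs or from unspliced Snhg1 RNA cannot be told from gene counts.

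The snoRNA, microRNA and other small RNA rows inside the remaining 8 members held 0 counts in all 6 libraries. There were 24 such rows, 18 of them snoRNA genes. They included 10 inside Gas5, 5 inside Snhg12 and 2 inside Snhg5. The members' own counts were therefore the only readout of these hosts. Small RNA rows with counts lay only inside Snhg1, the member that had no row of its own. Reads from inside a host with a row may have been given to the host or discarded, which was not tested. The 0 counts therefore do not show that these small RNAs were absent. Of 1507 snoRNA rows in all, 326 held any count and 46 were tested. Among those tested, 23 were called lower and 0 higher by edgeR, beside 19.7% and 22.5% of all tested genes. The snoRNA share of all counts was 0.00769% to 0.0113% in control and 0.00281% to 0.00397% in conditioned medium.

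Snhg1 and Gas5 share their start regions with protein-coding genes on the other strand, and both partners were called higher. Slc3a2, which encodes the heavy chain shared by several amino acid transporters, starts 106 bases from Snhg1 and does not overlap it. It had 136.1 and 84.1 CPM in the controls, while its conditioned values were 262 (VpR83), 265 (VpR99), 205 (VpR126) and 216 CPM (VpR2020). Every conditioned library lay above both controls, as was seen for 32% of all tested genes. The log2 fold change of Slc3a2 was 1.11 ± 0.24 (edgeR adjusted p = 0.0130). The snoRNA rows of Snhg1, on the other side of the start, had negative fold changes. Without control replicate 2 Slc3a2 was not called (edgeR adjusted p = 0.0894, range over the alternatives 0.000405 to 0.0894).

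Zbtb37, a zinc finger gene that overlaps the 5′ end of Gas5 on the opposite strand, had 7.93 and 6.34 CPM in the controls. It had 12.3 CPM under VpR83, 11.1 under VpR99, 24.5 under VpR126 and 20.2 under VpR2020 medium. These values were all above both controls, as for 32% of all tested genes. The log2 fold change was 1.25 ± 0.39 (edgeR adjusted p = 0.0401, range over the alternatives 0.00851 to 0.203), and the call was lost under upper-quartile and library-total scaling, by voom, and without control replicate 1, control replicate 2 or VpR2020. Relative to the Gas5 count, the Zbtb37 count was 3.74% and 4.51% in the controls and 20% to 45.2% in the conditioned libraries. The strand setting of the counting is not given in the sources used here, so reads from the overlap of Gas5 and Zbtb37 cannot be assigned with certainty.

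**Figure D3:**
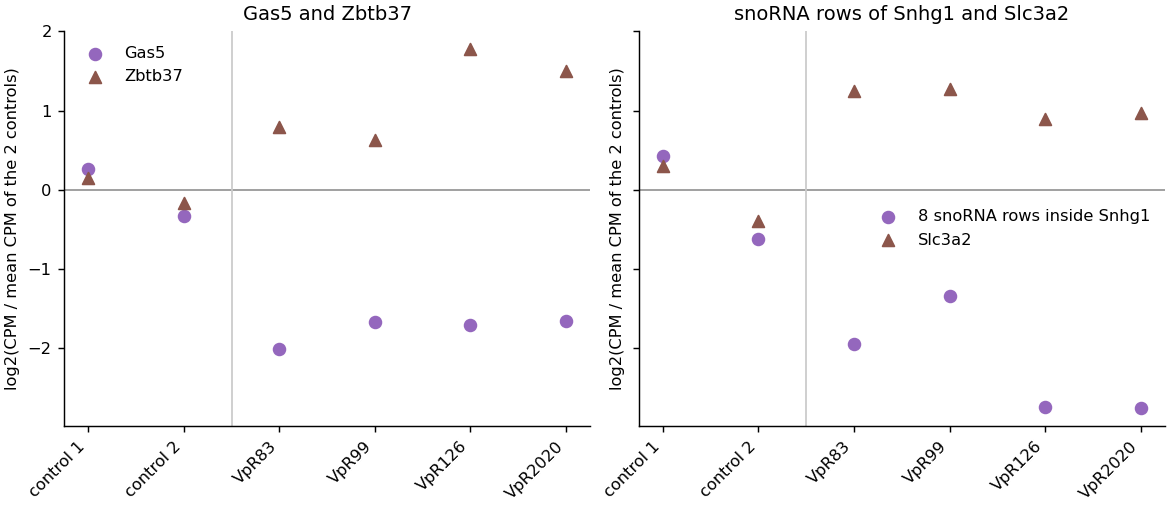
Log2 ratio of CPM to the mean of the 2 controls (y axis) in each library (x axis), for Gas5 (circles) and Zbtb37 (triangles) on the left and for the summed snoRNA rows inside Snhg1 (circles) and Slc3a2 (triangles) on the right. In all 4 conditioned libraries the circles lie below 0 and the triangles above 0.

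Neat1 and Malat1, the 2 members with the highest mean CPM, were not called. Malat1 (chr19:5795690-5802672, minus strand) had 268 and 231 CPM in the controls. In conditioned medium it had 206 CPM with VpR83, 172 with VpR99, 259 with VpR126 and 306 with VpR2020. The controls thus fell inside the range of the lines, and the log2 fold change was -0.08 ± 0.25 (edgeR adjusted p = 0.810). The group means were 249 ± 26.2 and 236 ± 59 CPM.

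Neat1 (chr19:5824708-5845478, minus strand) varied more than Malat1, both between the controls and between the lines. Control replicates 1 and 2 had 152 and 393 CPM. The conditioned media gave 237 CPM with VpR83, 332 with VpR99, 671 with VpR126 and 252 with VpR2020. The highest library was VpR126 and the lowest control replicate 1. The log2 fold change was 0.45 ± 0.56 (edgeR adjusted p = 0.536). It was 1.31 without control replicate 2, -0.08 without control replicate 1 and 0.02 without VpR126 (edgeR adjusted p = 0.231, 0.941 and 0.976), so single libraries set its direction. The SD of its log2 CPM over the lines was 0.69, at percentile 77 of all tested genes.

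Per kilobase of annotated exon, the order of the 2 RNAs turned. Neat1 has 20771 and Malat1 6983 exon bases in GENCODE M21, and their mean levels per kilobase were 13.1 and 35.7 CPM in control medium and 18.0 and 33.8 CPM in conditioned medium. Gas5, with 3760 exon bases over all its transcripts, had 46.9 CPM per kilobase in control medium, the highest of the members, and 13.9 in conditioned medium. Snhg5 had 27.7 and 6.42, Snhg12 7.83 and 2.29, and Mir22hg 13.8 and 11 CPM per kilobase in control and conditioned medium. Neat1 is made in a short and a long form from the same start, and gene counts do not separate them. Its level per kilobase, and so its order beside Malat1, rests on the full annotated length.

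The ratio of Neat1 to Malat1 counts, 2 RNAs of neighbouring genes in the same libraries, was 0.568 and 1.70 in the controls. It was 1.15 under VpR83, 1.93 under VpR99, 2.59 under VpR126 and 0.823 under VpR2020 medium. The mean log2 ratio was -0.02 ± 1.12 in control and 0.56 ± 0.74 in conditioned medium, a difference of 0.58 (two-sided exact permutation test over the 15 arrangements, p = 0.533, where the smallest possible p is 0.0667). The difference was smaller than the gap between the controls.

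Of the microRNA hosts, Mir22hg (chr11:75461539-75466676, plus strand) had 40.2 and 12.9 CPM in the controls, 16.4 (VpR83), 19.9 (VpR99), 32.3 (VpR126) and 16.2 CPM (VpR2020). Both the highest and the lowest of the 6 values were controls. The log2 fold change was -0.33 ± 0.49 (edgeR adjusted p = 0.610), and 0.71 without control replicate 1. Tlcd2, a gene on the same strand that starts 176 bases downstream and overlaps Mir22hg, had 4.30 and 4.37 CPM in the controls and 2.70 to 6.92 CPM in conditioned medium (0.34 ± 0.42, edgeR adjusted p = 0.530), and reads from the overlap may be lost to either gene.

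Mir155hg (chr16:84703167-84715245, plus strand) had 20 and 2 counts in the controls, or 0.667 and 0.094 CPM. It had 0 counts under VpR83 medium, which allows up to 0.110 CPM (3 counts), 10 under VpR99 (0.0811 CPM), 17 under VpR126 (0.718 CPM) and 1 under VpR2020 (0.0553 CPM). The exact 95% Poisson interval was 0.407 to 1.03 CPM in control replicate 1 and 0.418 to 1.15 CPM under VpR126 medium, and both lay above those of the other 4 libraries. The group means were 0.3803 ± 0.405 and 0.214 ± 0.338 CPM, and the difference was not called (edgeR adjusted p = 0.581).

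Dancr (chr5:74093060-74095406, plus strand), the host of Snora26, had 5 counts in control replicate 1, 2 in VpR99 and 0 in the other 4 libraries, so no fold is given. Mir155hg and Dancr thus lay near the limit of detection in several libraries, and a change in Dancr was not detectable from these counts. Why Dancr was this low, also in VpR99, the deepest library, was not tested.

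**Figure D4:**
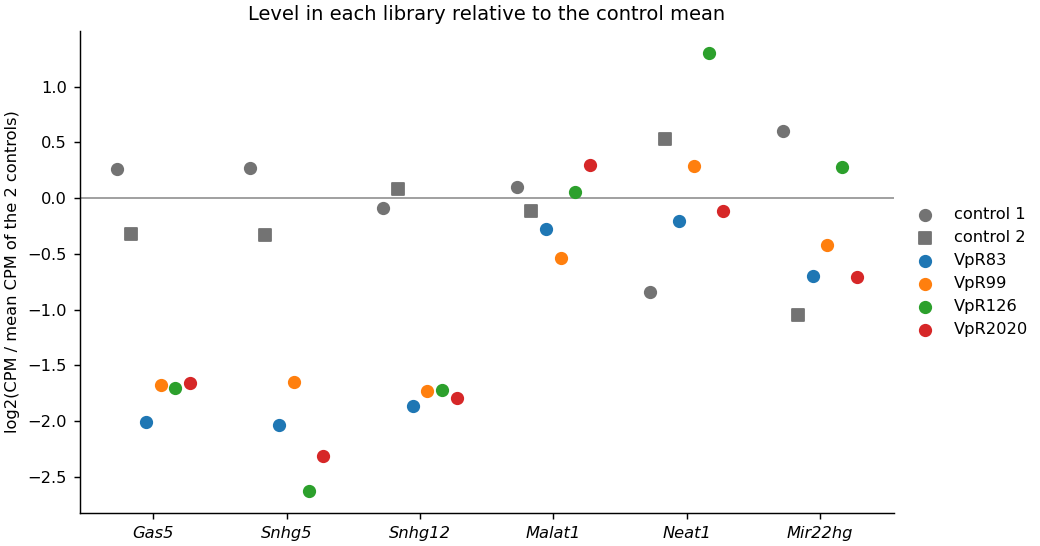
Log2 ratio of CPM to the mean of the 2 controls (y axis) for 6 members (x axis), with 1 point per library; grey circles and squares are control replicates 1 and 2. The 3 snoRNA hosts lie between -2.63 and -1.65 in all lines, whereas Malat1, Neat1 and Mir22hg lie on both sides of 0 and VpR126 has the highest conditioned value of Neat1 and Mir22hg.

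The genes whose profile over the 6 libraries was nearest to a member were found among 12857 tested protein-coding genes, by the Euclidean distance of log2 CPM centred on its mean. Nearest to Gas5 were Dhrs11 and Prdx2, a peroxiredoxin gene abundant in red cells, at distances of 0.339 and 0.354. Nearest to Snhg5 were the histone gene Hist1h4i (0.316) and the iron-sulfur cluster gene Glrx5 (0.398), and nearest to Snhg12 Rhpn2 (0.280) and Gnal (0.302). For Malat1 they were Cir1 (0.184) and Klhl22 (0.194), for Neat1 Syn3 (0.411) and Cald1 (0.573). For Mir22hg they were Zc3h12a, an RNase gene that restrains inflammatory transcripts (0.359), and the chaperone gene Dnajb4 (0.567). Mir155hg had no gene nearer than C130026I21Rik and Glcci1, both at 1.31. These distances over 6 libraries in 2 groups are a description with no test. Rhpn2 had means of 0.458 CPM in control and 0.121 CPM in conditioned medium, and Syn3 0.238 and 0.290 CPM. The profiles of Rhpn2 and Syn3 thus rest on few counts. Histone genes together made up 0.0196% to 0.0534% of control and 0.00599% to 0.0115% of conditioned counts.

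Other snoRNA host genes fell in part. Of 16 listed, 13 had a row and 10 were tested, of which 5 were called lower, 1 higher and 4 were not called, with a median log2 fold change of -0.89 beside -0.01 for all tested genes. The 950 tested rows with a long noncoding biotype had a median of -0.39, with 23.3% called lower and 11.2% higher. For all tested genes these shares were 19.7% and 22.5%. Snhg8 fell from 37.1 ± 4.99 to 8.73 ± 0.434 CPM (-2.09 ± 0.15, edgeR adjusted p = 0.000514) and Snhg16 from 6.76 ± 1.19 to 2.42 ± 0.545 CPM (-1.49 ± 0.31, edgeR adjusted p = 0.0104). Snhg11, a host with low counts, rose from 0.0803 ± 0.0193 to 0.955 ± 0.302 CPM (3.54 ± 0.57, edgeR adjusted p = 0.00445). Without control replicate 1 or 2, 1 gene of the list was called lower each time, and Snhg11 was not called without control replicate 1.

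Of the microRNA hosts outside the members, 3 of 8 were tested and 2 fell, beside 19.7% of all tested genes called lower. Mir17hg, the host of the miR-17 to miR-92 cluster that promotes proliferation, had 12.4 ± 1.7 and 3.12 ± 1.22 CPM (-1.98 ± 0.38, edgeR adjusted p = 0.00814). Mir142hg, the host of the blood cell microRNA miR-142, had 29 ± 4.47 and 12.1 ± 1.96 CPM (-1.26 ± 0.20, edgeR adjusted p = 0.00451). Without control replicate 1, 1 of the 2 was called, and without control replicate 2 neither, while without VpR99 1 gene of the list was called higher.

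Among other long noncoding RNAs, 17 of 26 listed were tested, with 4 called higher and 6 lower, beside 22.5% and 19.7% of all tested genes. The largest rises were those of Trp53cor1, a p53-induced RNA (2.84 ± 0.66), and Firre, an X-linked nuclear RNA (2.38 ± 0.49). Trp53cor1 was low, at 0.227 ± 0.0556 CPM in control and 1.68 ± 0.844 CPM in conditioned medium. Cerox1 (-3.19 ± 0.67) and Mirt1 (-2.55 ± 0.57) had the largest falls, with Mirt1 at 72.1 ± 2.68 CPM in control and 12.3 ± 8.47 CPM in conditioned medium. Cerox1 had only 58 counts over all libraries, at 0.759 ± 0.0103 CPM in control and 0.0627 ± 0.0565 CPM in conditioned medium. Without control replicate 1 the counts were 1 higher and 0 lower, and without replicate 2 they were 2 and 1.

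The proteins that work with snoRNAs were partly lower. Of 16 tested snoRNP proteins and assembly factors, 5 were called lower, 0 higher and 11 were not called by edgeR (median log2 fold change -0.84). All tested genes were called lower in 19.7% and higher in 22.5% of cases. Gar1 and Nop10, subunits of the pseudouridylation snoRNPs, had log2 fold changes of -1.55 and -1.24 (edgeR adjusted p = 0.0221 and 0.00352). The summed level of the list was 970.1 and 1012 CPM in the controls, 551 under VpR83, 787 under VpR99, 347 under VpR126 and 357 under VpR2020 medium. The 2 lines with the lowest Snhg5 and Snhg1 snoRNA values thus also had the lowest snoRNP values. With 1 library per line this match was not tested, and Gas5 and Snhg12 were instead lowest under VpR83 medium. Without VpR99 12 genes were called lower, without VpR2020 3, and without control replicate 1 or 2 1 each.

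Cytosolic ribosomal protein genes, a list added after values were seen and known for the start tract described above, which the search found at the 42.1% of entries given there, had a median log2 fold change of -0.69. Of 82 tested, 60 were called lower and 22 were not called, beside 19.7% of all tested genes called lower. Their share of all counts was 6.56% to 6.82% in control and 2.81% to 4.03% in conditioned medium. Without control replicate 1 or 2, 1 and 3 of them were called, and without VpR83 29.

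Proteins of the nuclear bodies that hold Neat1 and Malat1 were partly lower. Of 14 paraspeckle proteins 7 were called lower and 0 higher by edgeR (median -0.46), led by Hnrnph3 (-0.98 ± 0.22) and Pspc1 (-0.87 ± 0.24). Nono, a core paraspeckle protein gene, had 275 ± 1.54 and 288 ± 16.8 CPM and was not called (edgeR adjusted p = 0.702). Of 10 nuclear speckle proteins 2 rose, Srrm2 (1.02 ± 0.24) and Son (0.62 ± 0.19), and 4 fell, led by the splicing factors Srsf3 (-1.06 ± 0.21) and Srsf7 (-1.04 ± 0.27). Of all tested genes, 22.5% were called higher and 19.7% lower. Under upper-quartile and library-total scaling 11 paraspeckle genes and 7 speckle genes were called lower and 1 speckle gene higher. No speckle gene was called by edgeR when either control was left out, without VpR2020 2 were called lower and 1 higher, and without VpR83, where Son was not called, 1 was called higher. Of the paraspeckle genes 1 was called without control replicate 1, 0 without replicate 2, 4 without VpR83 and 3 without VpR2020.

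Factors of nonsense-mediated decay went both ways. Among 18 tested factors edgeR called 3 higher and 6 lower (median -0.33), beside 22.5% and 19.7% of all tested genes. Smg1, the kinase that phosphorylates the decay helicase UPF1, rose from 89.3 ± 3.93 to 240 ± 19.3 CPM (1.43 ± 0.15, edgeR adjusted p = 0.0013), and Nbas rose by 0.96 ± 0.18. The exon junction genes Magoh and Magohb had log2 fold changes of -1.43 ± 0.23 and -1.32 ± 0.30. Upf1 had 107.9 ± 20.5 and 114 ± 13.4 CPM and was not called (edgeR adjusted p = 0.724). Without either control 1 was called higher and 2 lower, and under upper-quartile or library-total scaling 10 were called lower.

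The 10 microRNA processing factors held 5 genes called higher and 0 called lower by edgeR (median 0.62). The shares of all tested genes, for these and the miR-155 targets below, were 22.5% higher and 19.7% lower. The largest rises were those of the Argonaute genes Ago3, from 8.5 ± 0.851 to 51.8 ± 14.1 CPM (2.61 ± 0.31, edgeR adjusted p = 0.00183), and Ago1 (1.30 ± 0.21, edgeR adjusted p = 0.00484). Under upper-quartile scaling 1 gene was called lower. Counts of rises were 3 under upper-quartile or library-total scaling, 1 and 2 without control replicates 1 and 2, and 3 without VpR83. Among 8 textbook targets of miR-155, edgeR called 3 higher and 0 lower (median 0.16), and 1 lower without VpR126. They were the transcription factor genes Maf (6.17 ± 0.44) and Bach1 (1.57 ± 0.20) and the phosphatase gene Inpp5d (0.88 ± 0.20). Maf and Bach1 are also expressed in macrophages, whose markers rose in the same libraries, and the part of the cell mixture was not tested.

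**Figure D5:**
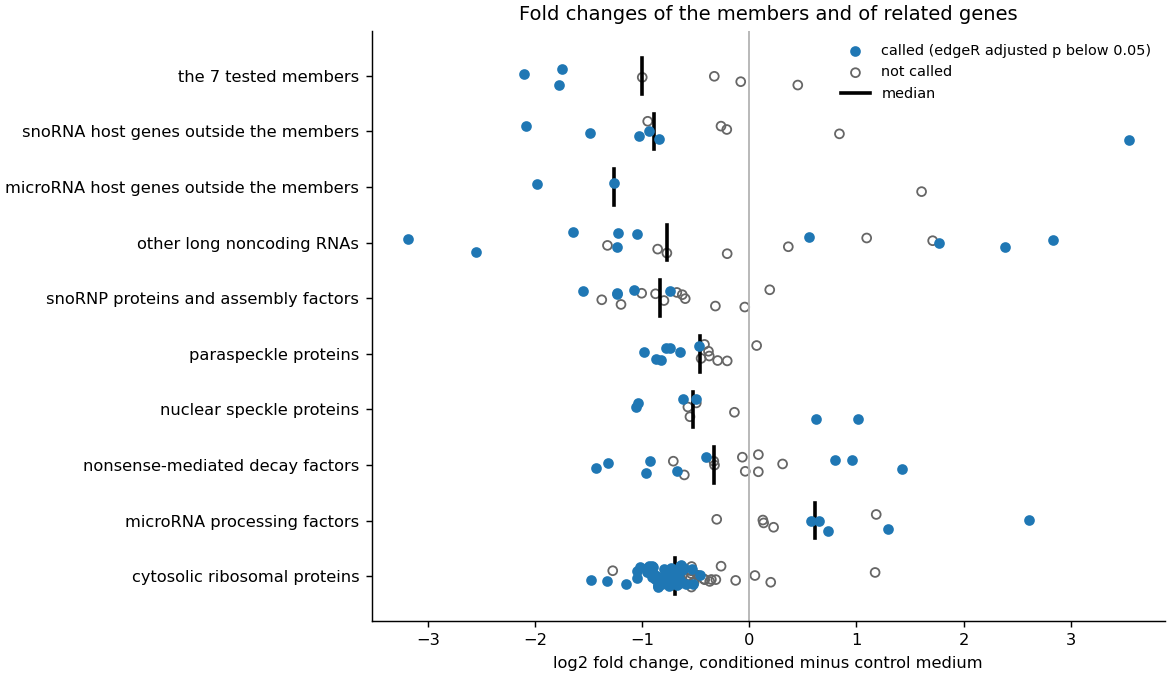
Log2 fold change, conditioned minus control medium (x axis), of each tested gene of the members and of 9 lists of related genes (rows); filled points were called at an edgeR adjusted p below 0.05, open points were not, and black bars are medians. The snoRNA hosts among the members lie near -2, the ribosomal protein genes cluster near their median of -0.69, and the microRNA processing factors have a positive median.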

How the data were processed

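The authors deposited raw counts of reads per mouse gene, with Ensembl identifiers. Per the submitters' processing notes, Trimmomatic 0.38, STAR 2.5.2b and GRCm38 were used. The tool that counted reads, the strand option and the annotation: not given in the sources used here. All 6 columns were matched to samples by name. Of the identifiers 45143 matched GENCODE M21 (GRCm38), which gave symbols, coordinates and exon lengths. The 563 without a match held at most 0.0828% of a library's counts.

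Counts were analysed with edgeR 4.0.16 in R 4.3.3 (filterByExpr at its defaults, TMM, robust quasi-likelihood fit on all 6 libraries with medium as its single term). SEs were taken from the fold change and edgeR's F statistic (its square root is their ratio). The fit was tested on simulated data. Alternatives were RLE, upper-quartile and library-total scaling, no low-count filter, DESeq2 1.42.0, voom of limma 3.58.1, VpR99 thinned to 25714176 counts, and leaving out each library. Intervals and floors cover counting error only.

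The members and lists were chosen with earlier results of these data known, and for that reason a permutation test designed for the summed hosts is not given. The rule for named genes took all members, the 2 largest rises and falls among the called genes of each list, the genes inside or divergent to a member with at least 10 counts, and the 2 nearest profiles. Nono, Upf1 and Kdr, and the leave-one-out ratios of the snoRNA rows inside Snhg1, were chosen after values were seen.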

Additional observations from a re-analysis of the deposited data

Results flagged for a closer look

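Each value was examined for a conditioned library apart from the other 3, by the gap to the nearest value as a share of the range (Dixon's test for 4 values). Of 13 such values 2 passed, where chance passes about 1 in 20 groups. Gas5 was low under VpR83 medium, with 43.7 CPM against 54.2 to 56 CPM in the other lines (gap 0.847 of the range). Mir155hg was high under VpR126 medium, with 17 counts or 0.718 CPM against at most 0.0811 CPM (0.887). Dancr had 2 counts in VpR99, the deepest library, and 0 in the other conditioned libraries (gap 1 of the range, which 3 zeros beside any other value give by construction), all at or under the limit of 3 counts.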

How the results depend on the processing

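Gas5, Snhg5 and Snhg12 were called lower in all 13 alternatives, with log2 fold changes of -2.001 to -1.43, -2.36 to -1.78 and -2.02 to -1.67. Neat1, Malat1, Mir22hg and Mir155hg were called in none. With a library left out, Neat1 ranged from -0.080 to 1.31, Malat1 from -0.22 to 0.047, Mir22hg from -0.91 to 0.71 and Mir155hg from -1.70 to 1.07 (not fitted without VpR126, where it failed the filter). Their direction turned without control replicate 1 (-0.080 for Neat1, 0.029 for Malat1, 0.71 for Mir22hg and 1.07 for Mir155hg), and that of Malat1 also without VpR99 (0.047). The Neat1 to Malat1 log2 difference was -0.21 to 1.38 with a library left out. The log2 difference of the summed snoRNA hosts, -1.80 by TMM, was -2.04 with library totals only and -2.07 to -1.53 with a library left out. Over all genes, 1283 to 3657 were called higher and 918 to 3374 lower with a library left out. A control left alone was taken to vary as the 4 lines do. Upper-quartile and library-total scaling moved the median of all genes from -0.01 to -0.22 and -0.26. Of 442 counts of genes called per list and alternative, 58 moved by over 1.5 times, mostly without a control. No paired analysis was possible because the conditioned libraries carry no replicate numbers.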
